A study of Mus musculus with 84 samples.

Results

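The genes described here are the semaphorins, plexins, Slits, Robos, netrins and Unc5 receptors of the mouse, and every row of the expression table with a symbol of these families was taken (Sema3a to Sema7a, Plxna1 to Plxnd1, Slit1 to Slit3, Robo1 to Robo4, Ntn1 to Ntn5 and Unc5a to Unc5d). That gave 44 of 20308 genes, of which 27 are ligands (20 semaphorins, 3 Slits and 4 netrins) and 17 are receptors (9 plexins, 4 Robos and 4 Unc5 genes). They were measured by single-cell RNA sequencing in 84 cells of the E11.5 mouse AGM (aorta-gonad-mesonephros), a part of the embryonic trunk around the dorsal aorta in which blood stem cells arise. The cells were sorted as CD31+CD144+CD41-CD45-, that is, with 2 endothelial surface proteins and without 2 proteins of blood cells, and a capture chip for cells of 10 to 17 µm limited their size. The labels name neither strain, genotype and treatment nor the embryos or pools, and all cells were therefore taken as 1 sample. No test was therefore run across cells, and intervals cover counting error only.

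Semaphorins are secreted or membrane-bound signals that steer growing axons and vessels by binding plexins, with neuropilins as co-receptors for most secreted class 3 semaphorins. Slits are secreted proteins read by Robo receptors, and netrins are laminin-related secreted proteins read by Dcc, neogenin and the Unc5 receptors. In blood vessels, Plxnd1, Robo4 and Unc5b are the receptors of these families best known from endothelium. The sort took endothelial cells, so ligands made by neighbouring tissues were not sampled.

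Values are TPM, transcripts scaled for length and to a fixed total per cell, so that levels of different genes can be set side by side. TPM 1 was the threshold for detection, and a log2 value is log2(TPM + 1). Between 3334 and 10073 genes were detected per cell, with a median of 6978, and TPM keeps no sequencing depth. Pecam1 (CD31) and Cdh5 (CD144) were detected in 80 and 82 cells, and Ptprc (CD45) in 0. Of the markers of other cell types, 34 cells held at least 3 of 11 mesenchyme markers at TPM 10 or more, and 5 cells held at least 3 of 10 neural markers. Against their sort, 4 cells held only 0 to 2 of 17 endothelial markers at TPM 10 or more. Of these, 3 held at least 3 mesenchyme markers and 2 at least 3 neural markers. Several results that rest on them are also given for the other 80 cells, but not every value is repeated. The 84 barcodes were all distinct, and 0 pairs of cells held identical values.

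Few guidance genes were broadly present. Only 9 of the 44 genes (20.5%) were detected in at least 42 of the 84 cells, a level that 34.6% of all genes in the table reached. These were the ligands Sema6a, Sema6d and Sema4b and the receptors Plxnd1, Robo4, Robo1, Unc5b, Plxnb2 and Plxna2. A further 24 genes were detected in 5 to 41 cells, 8 genes in 1 to 4 cells and 3 genes (Sema4a, Ntn5 and Robo3) in 0 cells. Of all 20308 genes, 5287 were detected in 5 to 41 cells, 2705 in 1 to 4 cells and 5285 in 0 cells. At least 5 cells held 33 of the 44 genes, beside 12318 of all 20308. The median guidance gene was detected in 16.5 cells, beside 16 cells for all genes. A count of 0 of 84 cells allows a share of up to 4.30% of cells with a detected transcript. Each cell held a median of 12 of the 44 genes, from 4 to 22. The number per cell went with the number of all genes detected in it, with a Spearman correlation of 0.51 over 84 cells.

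**Figure D1:**
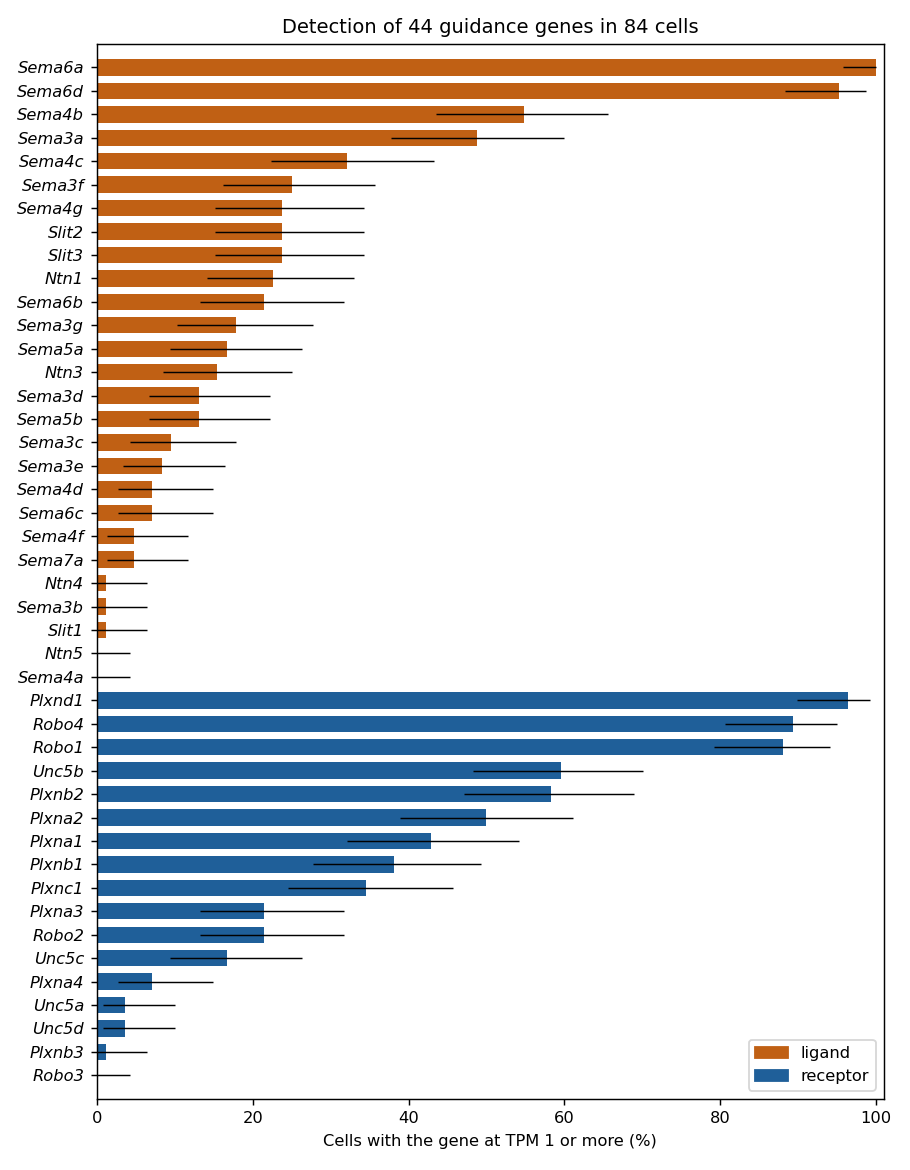
Share of the 84 cells with each guidance gene at TPM 1 or more, in percent, for 27 ligands (orange) above 17 receptors (blue); lines are exact Clopper-Pearson 95% intervals. Sema6a was detected in all 84 cells and Plxnd1 in 81, while most members lie under 42 cells.

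Class 6 semaphorins, which span the membrane and signal through A-type plexins, were the leading ligands. Sema6a (chromosome 18, 47245254 to 47371200, GRCm38.p6) was detected in all 84 cells, with a lowest value of 1.14, a median of 50.97 and a highest value of 283 TPM. Its lowest value was 2.03 TPM in the 80 cells with at least 3 endothelial markers. It was the one member found in every cell, and 78 cells held it at TPM 10 or more. Sema6d (chromosome 2, 124089943 to 124667789) was detected in 80 cells, or 95.2% (interval 88.3% to 98.7%). Its TPM ran from 0.12 over a median of 35.6 to a highest value of 284, so its upper end matched that of Sema6a while its lower quartile of 7.56 lay under the 30.7 of Sema6a. The other class 6 genes were sparse, with Sema6b in 18 cells at up to 18.4 TPM and Sema6c in 6 cells at up to 14.7 TPM.

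Secreted class 3 semaphorins, which repel or attract endothelial cells and axons through neuropilins and plexins, were each detected in fewer than 42 cells. Sema3a, which acts through Nrp1, was the most frequent, in 41 cells or 48.8% (37.7% to 59.96%). Its median was 0.955 TPM over all cells and 10.2 TPM over the cells with it, but it reached 672 and 579 TPM in the 2 highest cells, the highest values of any member. Sema3a was thus at 0 or low in most cells and very high in a few, and the 3 highest cells held 51.1% of its summed TPM. The cell at 672 TPM held 0 of 17 endothelial markers and 4 mesenchyme markers at TPM 10 or more, and the same cell gave the highest Ntn1, the highest ligand sum, the highest ratio of ligand to receptor and the lowest Plxnd1. Sema3f, a ligand of Nrp2, was found in 21 cells (highest value 166 TPM), Sema3g, which is known from arteries, in 15 (40.5 TPM) and Sema3d in 11 (48.6 TPM). Sema3c, known from the outflow tract of the heart, was detected in 8 cells, with a median of 39.6 TPM there and a highest value of 113 TPM. Sema3e, the ligand that binds Plxnd1 without a neuropilin, was above 0 in 64 cells but never above 2.66 TPM, and only 7 cells reached TPM 1. Sema3b was detected in 1 cell, which is not among the 80 cells with at least 3 endothelial markers. Of these genes, Sema3a, Sema3c, Sema3d and Sema3e lie on chromosome 5 between 12383161 and 17730268, and Sema3b and Sema3f lie on chromosome 9 between 107597674 and 107710475.

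Membrane-bound semaphorins of classes 4 and 5 and the lipid-anchored Sema7a were mostly low. Sema4b was detected in 46 cells, yet its median was 1.08 and its highest value 26.2 TPM, and 4 cells reached TPM 10. It was above 0 in 80 cells, so its place among the 9 widespread genes rests on values near the threshold. Sema4c, which binds Plxnb2, was found in 27 cells (highest value 78.9 TPM) and Sema4g in 20 (63.1 TPM). Sema4d, the ligand of Plxnb1, was found in 6 cells, Sema4f in 4 and Sema4a in 0. Sema5a was found in 14 cells (highest value 119 TPM), Sema5b in 11 (47.1 TPM) and Sema7a, the ligand of Plxnc1, in 4 (10.02 TPM).

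Slits and netrins were detected in a minority of cells. Slit2 and Slit3 were each detected in 20 cells, or 23.8% (15.2% to 34.4%). In cells with the gene, the median was 9.68 TPM for Slit2 and 9.60 TPM for Slit3, and the highest values were 225 and 65.1 TPM. They were thus equally frequent, while Slit1 was detected in 1 cell. Ntn1, the netrin that guides commissural axons, was detected in 19 cells, and 1 cell at 261 TPM held 61.6% of its summed TPM, with the next cell at 26.1 TPM. That 1 cell is the one with the highest Sema3a and no endothelial marker at TPM 10. Ntn3 was found in 13 cells (highest value 30.04 TPM), Ntn4, a netrin of basement membranes, in 1 cell at 26.7 TPM and Ntn5 in 0. Exons of Ntn3 overlap those of Tbc1d24 by 89 bases on the same strand in the GENCODE M21 annotation, and Tbc1d24 was detected in all 84 cells, so low values of Ntn3 are uncertain.

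Among the receptors, Plxnd1 led. Plxnd1 (chromosome 6, 115954811 to 115995339), the endothelial plexin that reads Sema3e and restrains sprouting, was detected in 81 cells, or 96.4% (89.9% to 99.3%). Its TPM ran from 0.06 over a median of 141 to a highest value of 443, and 78 cells held TPM 10 or more. Among the 80 cells with at least 3 endothelial markers, 79 held Plxnd1, from 0.23 TPM upwards. By median it ranked 1010th of all genes in the table, ahead of Sema6a at 2096 and Robo4 at 2485. Its quartiles of 61.2 and 192 TPM show that the level was high in most cells rather than in a few.

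The other plexins were lower and less frequent. Plxnb2 was detected in 49 cells, with a median of 3.2 and a highest value of 251 TPM (154 TPM in the 80 cells with at least 3 endothelial markers), and Plxna2, a receptor of Sema6a, in 42 cells, with a median of 0.94 and a highest value of 57.9 TPM. Plxna1, which pairs with neuropilins, was found in 36 cells (highest value 103 TPM), Plxnb1 in 32 (79.2 TPM) and Plxnc1 in 29 (66.7 TPM). The highest Plxnb1 was 71.8 TPM in the 80 cells with at least 3 endothelial markers. The intervals of these 5 plexins overlapped those of their neighbours in the order, so no rank among neighbours is shown. Plxna3 was found in 18 cells at up to 46.6 TPM, Plxna4, a receptor of Sema6a and Sema6b, in 6 cells at up to 9.56 TPM and Plxnb3 in 1 cell at 33.5 TPM. Among the 80 cells with at least 3 endothelial markers, 4 held Plxna4. A cell held a median of 3 plexins, from 1 to 7. Exons of Plxna1 overlap those of the antisense gene Gm26811 by 970 bases, or 10.7% of its exons, and whether strand was used in counting is not given in the sources used here.

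Robo4 and Robo1 were both widespread, and Robo3 was not detected. Robo4 (chromosome 9, 37401902 to 37414023), the Robo of endothelium, known for vessel stability, was detected in 75 cells, or 89.3% (80.6% to 94.98%), with a median of 37.5 and a highest value of 350 TPM. Robo1 (chromosome 16, 72027518 to 73047491), a Slit receptor of many tissues, was detected in 74 cells, or 88.1% (79.2% to 94.1%), with a median of 9.35 and a highest value of 99.1 TPM. Their detection was alike, in 75 and 74 of the same 84 cells. Their levels within a cell went either way, with Robo1 above Robo4 in 30 of 84 cells. Both were present in 66 cells, Robo1 alone in 8, Robo4 alone in 9 and neither in 1. Robo2 was found in 18 cells, with a highest value of 50.4 TPM. Robo3, a regulator of midline crossing in the nervous system, was above 0 in 1 cell only, at 0.59 TPM.

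Robo4 and Robo3 are neighbours on chromosome 9 that run towards each other, with Robo3 at 37416045 to 37433436, so these 2 genes of opposite detection start at opposite ends of one short stretch. Their promoters are shown with that of Plxnd1, the highest receptor, read 5′ to 3′ on the gene's own strand. Each window runs from 250 bases before to 50 bases after a start site of RefSeq on GRCm38.p6. The windows of Plxnd1 and Robo3, both on the minus strand, lie wholly inside the gene spans given here. Their start sites thus lie downstream of the outer end of the gene, and sequence before that end is not shown. Capitals mark AGGAAG or CGGAAG on either strand, letters that hold the GGAA core known from ETS transcription factors.
Plxnd1, chr6:115994956-115995255, minus strand: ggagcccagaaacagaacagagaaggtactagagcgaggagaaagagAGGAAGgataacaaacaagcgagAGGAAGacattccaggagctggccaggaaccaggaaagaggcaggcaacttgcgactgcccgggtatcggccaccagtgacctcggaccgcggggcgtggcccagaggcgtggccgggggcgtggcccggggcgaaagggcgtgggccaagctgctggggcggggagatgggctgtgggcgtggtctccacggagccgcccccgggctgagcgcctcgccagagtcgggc
Robo4, chr9:37401722-37402021, plus strand: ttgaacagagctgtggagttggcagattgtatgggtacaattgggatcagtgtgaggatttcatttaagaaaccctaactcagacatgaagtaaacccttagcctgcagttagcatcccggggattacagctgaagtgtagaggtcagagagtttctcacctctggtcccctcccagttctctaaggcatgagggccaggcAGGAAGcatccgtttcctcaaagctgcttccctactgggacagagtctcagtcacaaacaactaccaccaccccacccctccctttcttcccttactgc
Robo3, chr9:37433126-37433425, minus strand: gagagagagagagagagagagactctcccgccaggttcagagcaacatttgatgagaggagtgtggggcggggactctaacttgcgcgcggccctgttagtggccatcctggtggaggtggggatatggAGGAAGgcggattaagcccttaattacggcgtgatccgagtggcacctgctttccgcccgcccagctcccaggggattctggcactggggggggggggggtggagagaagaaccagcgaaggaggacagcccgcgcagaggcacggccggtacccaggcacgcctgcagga
The window of Plxnd1 held 2 matches and those of Robo4 and Robo3 held 1 each, so the match did not separate the detected from the undetected Robo gene. RefSeq promoters were found for 36 of the 44 genes, 49 windows in all, of which 22 (44.9%) held a match. That was 4 of 11 windows of the members detected in at least 42 cells and 18 of 38 windows of the other members. Of all 32851 promoter windows of this length, 46.5% held a match. The 11 windows cover 8 of the 9 widespread members, with none for Sema6a. Windows were counted rather than genes, and both windows of Sema4b held a match.

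Of the Unc5 receptors, Unc5b, the one known from arteries, capillaries and tip cells, was the frequent one. Unc5b (chromosome 10, 60762594 to 60831581) was detected in 50 cells, or 59.5% (48.3% to 70.1%), with a median of 5.8 TPM over all cells, 30.3 TPM in cells with the gene and a highest value of 210 TPM. Unc5c was found in 14 cells (highest value 55.1 TPM), and Unc5a and Unc5d in 3 cells each. Unc5d was above 0 in 53 cells, almost all below TPM 1. Of its family, Unc5b was thus detected in the most cells, and its interval did not overlap the 9.42% to 26.4% of Unc5c.

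**Figure D2:**
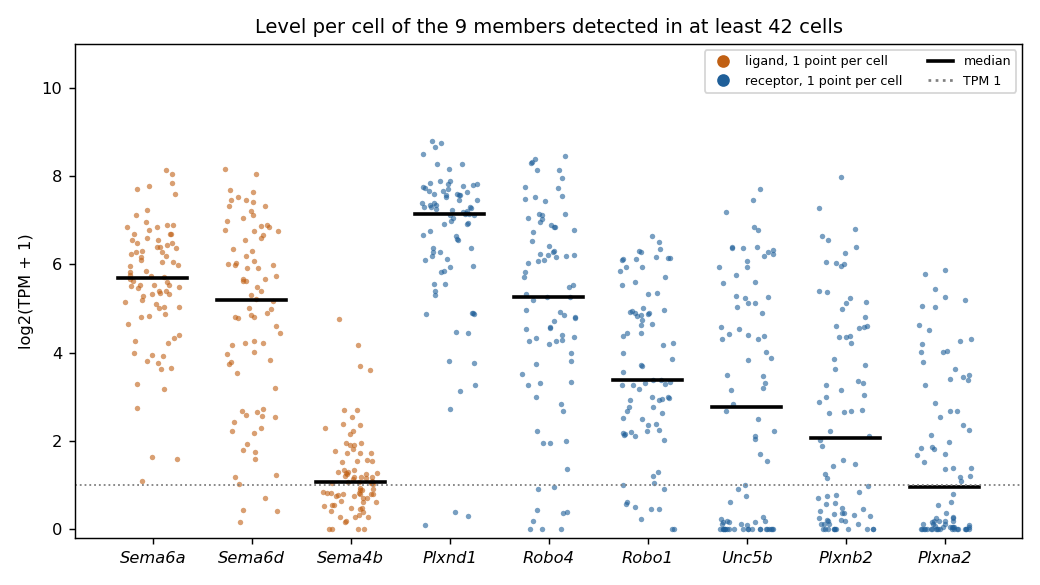
Level per cell, as log2(TPM + 1), of the 9 genes detected in at least 42 of 84 cells, 3 ligands (orange) left of 6 receptors (blue), with 1 point per cell and the median as a bar; the dotted line is TPM 1. Plxnd1 has the highest median (141 TPM), and Unc5b, Plxnb2 and Plxna2 run from 0 up to 210, 251 and 57.9 TPM.

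Ligands were compared with receptors first by gene. Of the 27 ligands, 3 (11.1%) were detected in at least 42 cells, and the median ligand was detected in 13 cells. Of the 17 receptors, 6 (35.3%) were detected in at least 42 cells, and the median receptor was detected in 29 cells. For all genes the share was 34.6% and the median 16 cells. The share of receptors was thus close to that of all genes, and the share of ligands was below it. A cell held a median of 6 ligands, from 2 to 13, and 6 receptors, from 2 to 12. Ligand genes were thus more numerous, but a smaller share of them was detected widely.

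Summed over a cell, ligand transcripts had a lowest value of 15.5, a median of 166 and a highest value of 1024 TPM. Receptor transcripts had a lowest value of 62.9, a median of 296 and a highest value of 826 TPM. The ratio of ligand to receptor TPM within a cell had a median of 0.56, from 0.024 to 6.78. In the 80 cells with at least 3 endothelial markers, the highest ligand sum was 660 TPM, the highest ratio 5.70 and the share of cells with more ligand 28.75%. The lowest receptor sum in those 80 cells was 80.2 TPM. Ligand transcripts exceeded receptor transcripts in 25 of 84 cells, or 29.8% (20.3% to 40.7%), and receptor transcripts exceeded ligand transcripts in the other 59 cells. The receptor sum was hence the higher one in most cells, although ligands are the larger group of genes. Within the 7 sets of 12 cells that share the second index of the library barcode, 1 to 6 of 12 cells held more ligand than receptor. With the mean log2 value per gene in place of sums, 4.76% of cells had more ligand.

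Both sums rested on few genes. Sema6a and Sema6d together made up a median of 70.7% of the ligand TPM of a cell, and 1 of these 2 was the highest ligand in 62 of 84 cells, Sema6a in 36 and Sema6d in 26. Sema3a was the highest ligand in 11 cells, 9 of which held at least 3 mesenchyme markers. On the receptor side, Plxnd1 and Robo4 together made up a median of 66.6%, and 1 of them was the highest receptor in 69 cells, Plxnd1 in 53 and Robo4 in 16. Plxnb2 was the highest receptor in 4 cells and Unc5b in 3. Without Sema6a and Plxnd1, the ligand and the receptor of highest mean, 34.5% of cells had more ligand.

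**Figure D3:**
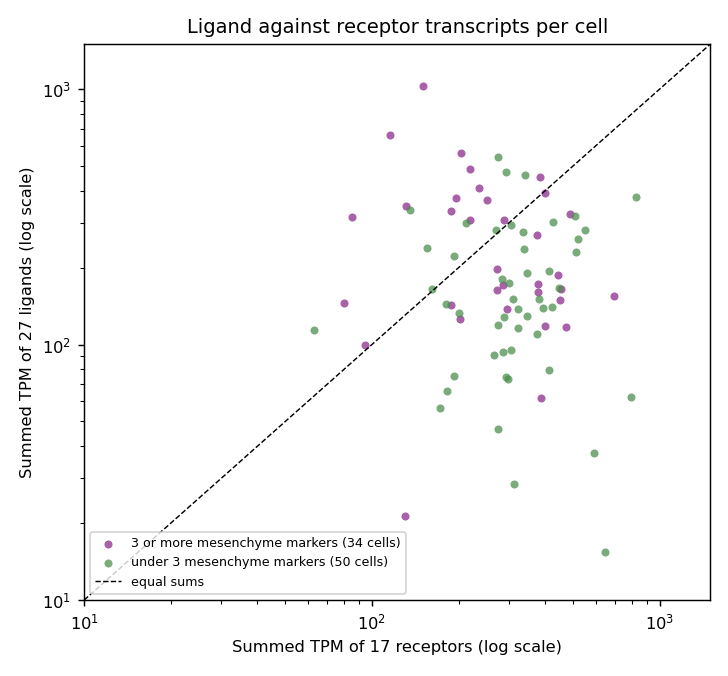
Summed TPM of the 27 ligands against that of the 17 receptors, 1 point per cell, both axes on a log scale; purple cells hold at least 3 mesenchyme markers at TPM 10 or more (34 cells), green cells fewer (50 cells). Points above the dashed line of equal sums are the 25 cells with more ligand, 15 of them purple.

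The 25 partner pairs listed from textbook knowledge were then counted within cells. Both genes were detected in at least 10 cells for 13 pairs, in at least 42 cells for 3 pairs and in 0 cells for 2 pairs. The most frequent pairs involved Unc5b: it was found with the adhesion protein Flrt2, which binds Unc5 receptors, in 47 cells and with its Robo partner Robo4 in 46 cells. Flrt2 was present in 47 of the 50 cells with Unc5b and in 30 of the 34 cells without it. Robo4 was present in 46 and 29 of these cells, so both partners were frequent with or without Unc5b. Sema6a and Plxna2 were together in 42 cells, which is every cell with Plxna2, since Sema6a was in all cells. Sema6d met Plxna1 in 34 cells, with Sema6d alone in 46.

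Neuropilins and Plxnd1 were detected in more cells than the secreted semaphorins listed with them. Nrp1 was detected in 36 of 41 cells with Sema3a and in 42 of 43 cells without it, and Nrp2 in 19 of 21 cells with Sema3f and in 62 of 63 without. Plxnd1 was found in all 7 cells with Sema3e, in 7 of 8 with Sema3c and in 74 of the 77 cells without Sema3e. Robo1 was likewise more frequent than either Slit, in 17 of 20 cells with Slit2 and in 57 of 64 without it, and in 18 of 20 cells with Slit3. Robo2 was not, with detection in 6 of 20 cells with Slit2 and in 12 of 64 without it. Plxna1, in fewer cells than Sema3a, was detected in 18 of 41 cells with Sema3a and in 18 of 43 cells without it.

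Of the netrin pairs, those of Ntn1 were the more frequent. Unc5b was detected in 9 of 19 cells with Ntn1 and in 41 of 65 cells without it, and neogenin (Neo1) in 14 of 19 cells with Ntn1 and in 26 of 65 without it. Ntn1 was detected mostly in cells with mesenchyme markers, as given further on. Dcc, the netrin receptor of neurons, was detected in 3 cells. The pairs Sema4d with Plxnb1 and Sema7a with Plxnc1 were found in 1 cell each, Sema4c with Plxnb2 in 12 cells, and Sema5a with Plxnb3 and Sema4a with Plxnd1 in 0 cells.

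**Figure D4:**
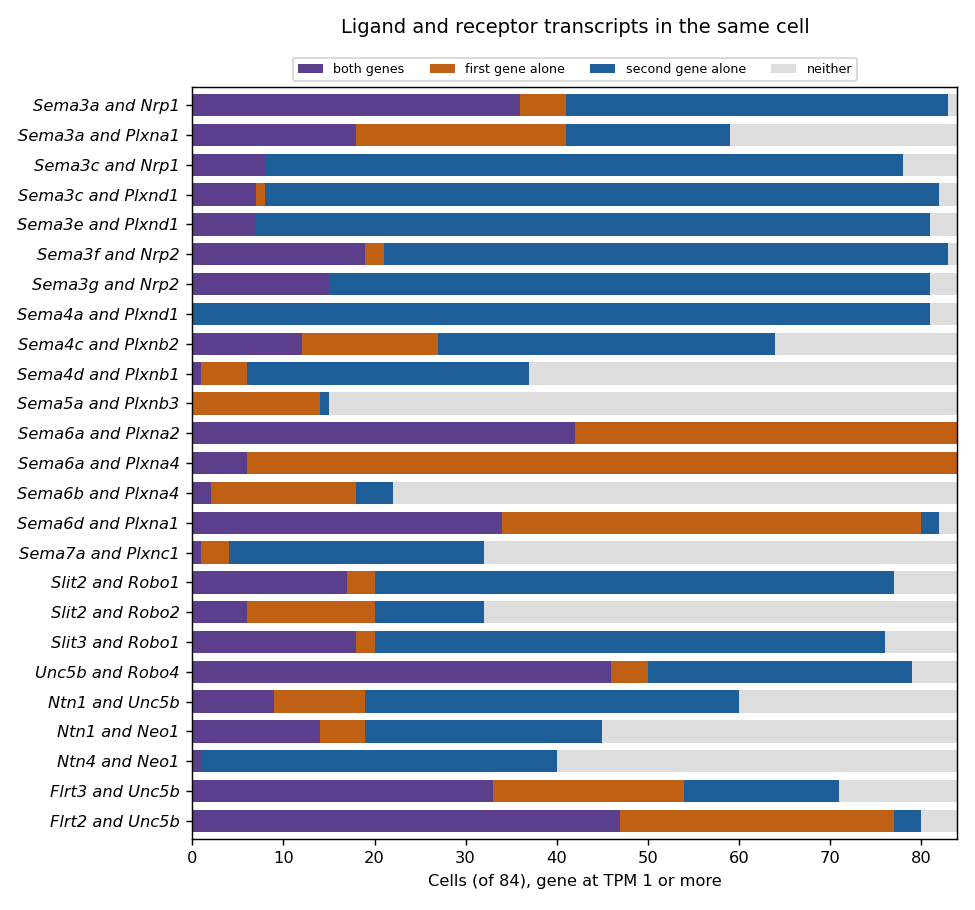
Number of the 84 cells with both genes, the first gene alone, the second gene alone or neither at TPM 1 or more, for 25 pairs of partners. Most bars of class 3 semaphorins and Slits are dominated by cells with the receptor alone, such as 74 cells for Plxnd1 without Sema3e.

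Levels were next set beside markers of other cells. The 34 cells with at least 3 mesenchyme markers at TPM 10 or more were compared with the other 50 cells over genes detected in at least 5 cells, a filter that 33 of the 44 members passed. A difference of 1 in mean log2(TPM + 1) was the size from which a gene was named. Sema3a, Plxnb2, Sema5a, Ntn1 and Plxna1 were higher by that size in the cells with mesenchyme markers, and Robo4 and Plxnd1 were lower. These are 5 and 2 of the 33 members, beside 3.95% and 6.4% of all 12318 genes. Sema5a and Ntn1, with 2 and 4 of the other cells, passed the filter of 5 cells only through the cells with mesenchyme markers. Their place among the 5 is thus not independent of the filter. The median difference of the 33 members was 0.29, and that of all genes was -0.05.

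Sema3a had a median of 3.06 and a highest value of 672 TPM in the cells with mesenchyme markers, against a median of 0.55 and a highest value of 343 TPM in the other cells. It was detected in 22 of 34 cells with mesenchyme markers and in 19 of the 50 others, and the difference was 2.17 on the log2 scale. Both sets hold cells at 0. Sema5a was detected in 12 of 34 cells with mesenchyme markers (highest value 119 TPM), against 2 of the 50 others (11.7 TPM), a difference of 1.55. Ntn1 was detected in 15 of 34 cells with mesenchyme markers (highest value 261 TPM), against 4 of the 50 others (11.9 TPM), a difference of 1.29. These are the 3 ligands that were higher by the size of 1, and they are secreted or membrane-bound. Of all 20 ligands compared, 12 had a higher mean in the cells with mesenchyme markers.

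Of the plexins, Plxnb2 had a median of 10.7 TPM in the cells with mesenchyme markers, against 0.7 TPM in the other cells, a difference of 1.66. It was detected in 25 of 34 cells with mesenchyme markers and in 24 of the 50 others. Plxna1 was detected in 21 of 34 cells with mesenchyme markers, against 15 of the 50 others, with a difference of 1.08. Plxnd1 had a lowest value of 0.06, a median of 97.0 and a highest value of 312 TPM in the cells with mesenchyme markers. In the other 50 cells its lowest value was 12.5, its median 155 and its highest 443 TPM, and the difference was -1.25. All 50 of those cells held Plxnd1, as did 31 of the 34. Robo4 had a median of 19.4 TPM in the cells with mesenchyme markers (28 of 34 with the gene), against 61.3 TPM in the others (47 of 50), a difference of -1.51. For each of these 7 members the ranges of the 2 sets overlap.

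The 2 sets also differed in endothelial genes. All 17 endothelial markers had a lower mean in the cells with mesenchyme markers, 16 of them by 1 or more, and their summed level had a median of 2817 TPM (from 7.37 to 5409), against 4542 TPM (from 41.8 to 10620) in the other cells. The 11 mesenchyme markers summed to a median of 503 TPM (from 76.6 to 2854), against 1.49 TPM (from 0.04 to 68.5). The part of either cell content in these differences was not tested. Where only cells with both Pecam1 and Cdh5 at TPM 10 or more were compared, 26 against 49, the difference was 2.15 for Sema3a, 1.46 for Sema5a, 1.44 for Plxnb2, 1.23 for Ntn1, 1.10 for Plxna1 and -1.09 for Plxnd1, while that of Robo4 was -0.92 and no longer reached 1. Among the 80 cells with at least 3 endothelial markers, 31 against 49, it was 1.99 for Sema3a, 1.52 for Sema5a, 1.42 for Plxnb2, 1.09 for Ntn1, 1.08 for Plxna1 and -1.25 for Robo4, while that of Plxnd1 was -0.90. Within the 7 index sets, Plxnb2 was higher in 7, Sema3a, Sema5a and Plxna1 in 6 and Ntn1 in 5, and Plxnd1 and Robo4 were lower in 6. Ligand transcripts exceeded receptor transcripts in 15 of the 34 cells with mesenchyme markers, or 44.1% (27.2% to 62.1%). Among the other 50 cells they did so in 10, or 20% (10.03% to 33.7%). These intervals overlap, which does not by itself decide whether the shares differ, and no test was run.

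Prox1, the regulator of lymphatic identity, was at TPM 10 or more in 36 cells, which were compared with the other 48. Unc5b was the 1 member of 33 that was higher by 1 or more, beside 4.66% of all genes, and 0 members were lower, beside 1.16%. Unc5b was detected in 29 of 36 cells with Prox1, with a median of 21.1 and a highest value of 210 TPM. In the other cells it was detected in 21 of 48, with a median of 0.34 and a highest value of 145 TPM. The difference was 1.96, and it was above 0 in all 7 index sets, from 0.55 to 3.07. Plxnd1 was 0.99 higher and Robo1 0.78 lower. Of 44 other pathway genes compared, listed further on, 2 were higher by 1 or more, beside the same 4.66%, and 0 were lower. These were Rhoj, by 1.53, and the co-receptor Nrp2, which is known from veins and lymphatics, by 1.47. Nrp2 had a median of 132 TPM in the cells with Prox1, against 48.8 TPM in the others. The co-receptor Nrp1 went the other way, with a difference of -0.97. Beside this, 3 of the 11 mesenchyme markers were lower by 1 or more in the cells with Prox1, 2 of 3 smooth muscle markers tested were lower by that size, and 4 of 17 endothelial markers were higher and 1 lower. The part of these markers in the difference of Unc5b was not tested. Among the 80 cells with at least 3 endothelial markers, the difference of Unc5b was 1.88, and Robo4 was lower by just the size of 1. Without the cells with mesenchyme markers (24 against 26 cells) the difference of Unc5b was 1.91, and Robo4 was then lower by 1.36.

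Artery-restricted genes (Gja4, Gja5 or Dll4) were at TPM 10 or more in 30 cells, 13 of which also held Prox1 at that level. Unc5b was again the 1 member past the size of 1, beside 4.43% of all genes that were higher, and 0 members were lower, beside 0.609%. It was detected in 22 of 30 cells with artery genes and in 28 of 54 other cells, with a median of 16.3 TPM in the cells with artery genes, against 2.54 TPM in the others, a difference of 1.10. That difference did not hold within index sets: it was above 0 in only 3 of 7, from -0.82 to 2.50. Counting the artery genes from TPM 1 gave 0.93, and the 80 cells with at least 3 endothelial markers gave 0.99. Sema3g was detected in 11 of 30 cells with artery genes and in 4 of 54 others, with a difference of 0.87. It thus passed the filter of 5 cells only through the cells with artery genes. Its difference reached 1.17 without the cells that hold mesenchyme markers. Of the 17 endothelial markers, 5 were higher by 1 or more in the cells with artery genes and 0 were lower, and their part in the difference was not tested. Median numbers of detected genes per cell were 7137 with artery genes and 6808 without.

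**Figure D5:**
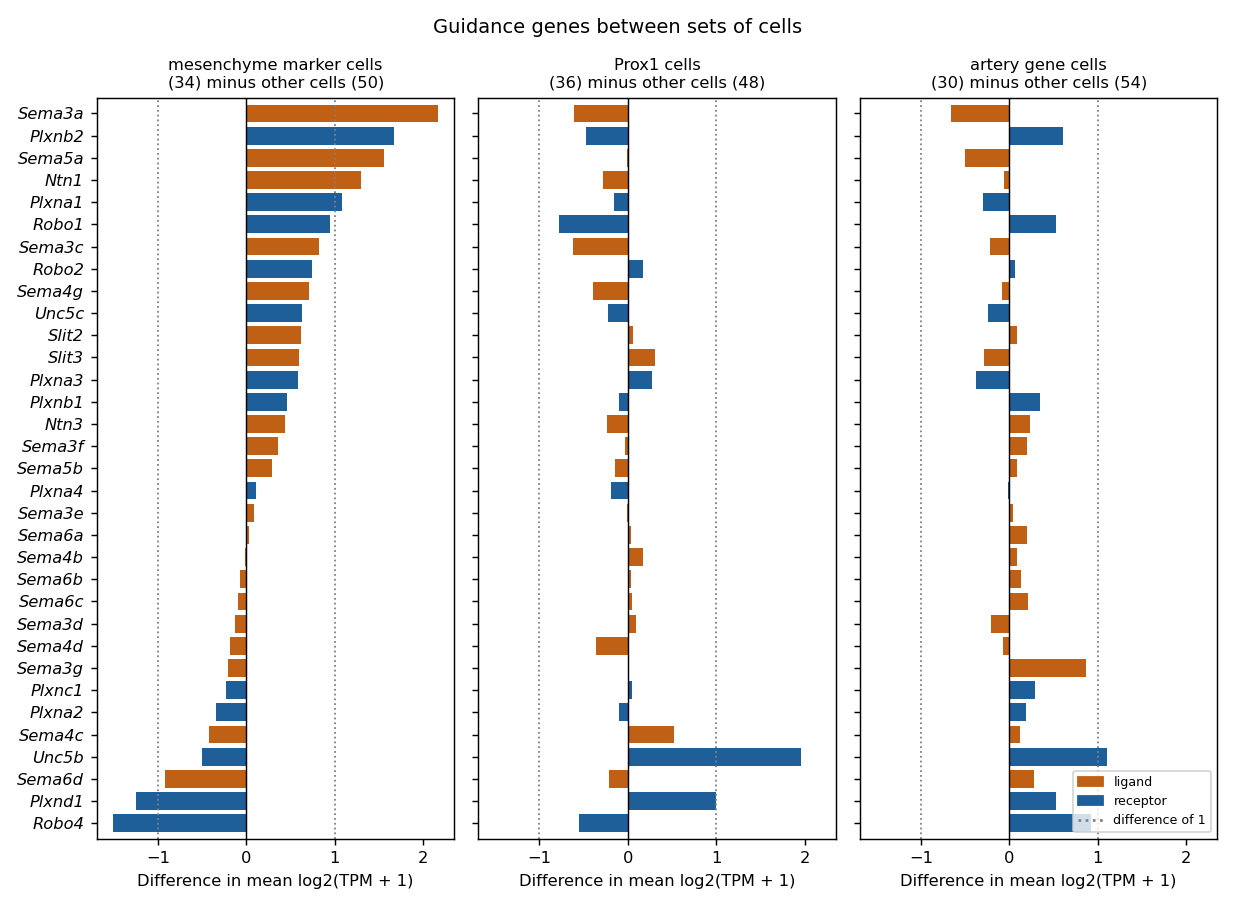
Difference in mean log2(TPM + 1) of the 33 members detected in at least 5 cells, for mesenchyme marker cells (34 minus 50 cells), Prox1 cells (36 minus 48) and artery gene cells (30 minus 54), with ligands in orange, receptors in blue and dotted lines at a difference of 1. Sema3a (2.17) and Robo4 (-1.51) lie at the ends of the first panel, and Unc5b (1.96 and 1.10) leads the other panels.

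Other genes of the same pathways were taken from a list of 48 co-receptors, further ligands and proteins that act after the receptors. Of all genes in the table, 34.6% were detected in at least 42 cells. Of 10 co-receptors and binding partners, 5 were detected in at least 42 cells: Itgb1 (81 cells, median 190 TPM), Nrp2 (81 cells, 68.3 TPM), Nrp1 (78 cells, 83 TPM), Flrt2 (77 cells, 50.7 TPM) and Flrt3 (54 cells, 6.74 TPM). Neo1 was detected in 40 cells. Of 6 further ligands, Rgmb, a ligand of neogenin, reached that level with 66 cells and a median of 12.9 TPM.

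Of 32 genes that act after the receptors, 19 were detected in at least 42 cells, beside 34.6% of all genes. The collapsin response gene Dpysl2, which relays Sema3a signals to microtubules in neurons, had a median of 1077 TPM and was in all 84 cells, and its relatives Crmp1 and Dpysl3 were in 69 and 65 cells. The small GTPase genes Rap1b, Rnd1, Rhoj, Rnd3 and Rras, which bind plexins or act near them, were in 82, 78, 75, 53 and 45 cells, and Rhoj had a median of 67.4 TPM. Gipc1, an adaptor of neuropilins, was in 84 cells, Fyn in 77 and Farp1, an exchange factor of A-type plexins, in 59. On the Robo side, Srgap2 was in 74 cells, Srgap1 in 71 and Abl1 in 63, and the adaptors Nck2 and Nck1 were in 83 and 75. Of proteins that bind Unc5 receptors, Maged1 was in 83 cells at a median of 358 TPM and Dapk1 in 43. In cells with mesenchyme markers, 44 genes of the list were compared, beside the 3.95% higher and 6.4% lower of all genes, and 4 were higher by 1 or more (Rnd3 by 2.40, Flrt3 by 1.53, Vegfa by 1.10 and Dpysl4 by 1.02). Another 4 were lower, with differences of -2.02 for Rhoj, -1.96 for Rras, -1.40 for Itgb1 and -1.23 for Fes.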

How the data were processed

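The authors deposited 1 table of TPM values for 20308 genes in 84 cells, whose columns sum to between 999998 and 1000002. Per the labels' protocols, cells of 10 to 17 µm were captured on a microfluidic chip, cDNA was copied at full length by SMARTer chemistry, and Nextera XT libraries, 24 per lane, were read single-end at 67 bp. Bowtie 0.12.9, RSEM 1.2.3, CASAVA 1.8.2 and the build mm10 are listed in the submitters' processing notes, without settings. The annotation is not given in the sources used here. The members, gene lists, pairs and cell sets were chosen with earlier results of these data known. Coordinates and promoters come from RefSeq on GRCm38.p6, the assembly that mm10 names, in which all 44 symbols were found.

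From the deposited values, detection (TPM 1), marker counts (TPM 10), medians and differences in mean log2(TPM + 1) were computed with Python 3.11.15, pandas 2.3.3 and scipy 1.17.1, with exact Clopper-Pearson intervals at the 95% level. Differences between cell sets used genes detected in at least 5 cells. Since the cells form 1 sample, no test was run across cells, and no cell was left out. No doublet caller was run on 84 cells. The log2(TPM + 1) scale understates differences of low genes. The comparison was tested on simulated data for the split by mesenchyme markers only, with the values of each gene shuffled over cells. Changes were put into genes detected in at least 42 cells. Sema3a, Plxna1, Ntn1 and Sema5a were detected in fewer cells, so the shares recovered do not cover them. Of 100 changes each, 79% of those of 4-fold and 97% of those of 8-fold reached the size of 1. So did 3.5% of 12118 unchanged genes. The splits by Prox1 and by artery genes were not simulated. Named with values were members detected in at least 42 cells, members of a listed pair, the highest of each family, members past a difference of 1, and pathway genes detected in at least 42 cells, of which 1 is not reported here. Plxnd1, Robo1, Nrp1, Nrp2 and Rhoj in the Prox1 comparison were named after their values were seen. So were Sema3g in the artery comparison, Neo1, Dcc and other sparse members. Alternatives changed the detection threshold, the cells used, the pseudocount, the scaling and the marker thresholds.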

Additional observations from a re-analysis of the deposited data

How the results depend on the processing

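No paired analysis was possible because the cells form 1 group. Detection counts depended on the threshold. Counted above 0 TPM, 18 members, 9 of them ligands, were in at least 42 cells, the median cell held 20 members, and 20 pairs were found in at least 10 cells. At TPM 10, the counts were 4 members, 2 of them receptors, with 7 members per cell and 6 pairs. Without the cells with mesenchyme markers, 20% of cells had more ligand than receptor TPM and 8 pairs were found in at least 10 cells, of fewer cells in all, and with mean log2 values 4.76% of cells had more ligand. With a pseudocount of 10, which shrinks low genes, 1 member (Sema3a) was higher and 0 were lower in cells with mesenchyme markers, and 0 members were higher in Prox1 or artery gene cells, where Unc5b differed by 0.92 and 0.51. Among cells with Pecam1 and Cdh5 at TPM 10, a choice made after seeing the data, 1 member was lower. Among the 80 cells with at least 3 endothelial markers, also chosen after seeing the data, 1 member was lower in cells with mesenchyme markers (Robo4), 1 was lower in Prox1 cells (Robo4) and 0 were higher in artery gene cells. With artery genes counted from TPM 1, 0 members were higher. Without the cells with mesenchyme markers, 1 member was lower in Prox1 cells (Robo4) and 2 were higher in artery gene cells (Sema3g and Unc5b). With mesenchyme markers counted at TPM 100, in 11 cells, 6 of the 7 members past the size of 1 were past it in the same direction, beside a median difference of all genes of -0.26. Where not stated, the cause of a change was not tested. Of 255 further values for single genes and roles, 190 stayed within counting error or on the same side of the size of 1, 52 moved, 13 fell short of it and 0 turned direction. Depth is unknown, so 0 TPM can be absence or a missed transcript.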

Other observations

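For the 3 members of highest median TPM, the genes most like them over the 84 cells were sought among the 7031 genes detected in at least 42 cells. The cells share 1 sample, and the correlations are descriptions. The 5 genes named for each member are the highest picked from these 7031. How high such picked values would be for unrelated genes was not tested. Robo4 was closest to Cd93, an endothelial surface protein, with a Spearman correlation of 0.55, and to the endothelial sialomucin Emcn (0.54), followed by Cyyr1 (0.52), Enpp3 (0.51) and Cd38 (0.49). Plxnd1 was closest to Gngt2 (0.52), Fam65a (0.49), Lrrc8c (0.49), Gng11 (0.47) and Bcl6b (0.47), a repressor known from endothelium. Sema6a, the ligand found in every cell, was closest to Rad50 (0.50), Rreb1 (0.49), Zfp277 (0.42), Pla2g2d (0.40) and Rasl12 (0.40). None of these 5 is in the endothelial list used here, and of all 15 neighbours only Emcn is.

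Among the 9 widespread members themselves, correlations over cells were weak, from -0.26 between Plxnb2 and Robo4 to 0.33 between Robo4 and Sema6d. Sema6a and Sema6d, which led the ligands together, had a correlation of 0.079, and Sema6a was the higher one in 47 of 84 cells. Sema4f was detected in 4 cells but reached 91.7 and 79.2 TPM in 2 of them, and Unc5a was detected in 3 cells with a highest value of 71.01 TPM. Plxnb3 was above 0 in 1 cell, at 33.5 TPM.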
